A study of Homo sapiens with 12 samples.

Results

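The heat shock and DNAJ chaperones were taken from the count table as its protein-coding genes whose symbol starts with HSPA, HSPB, HSPD, HSPE, HSPH or HSP90, or with DNAJA, DNAJB or DNAJC and a number. This gave 76 of the 58907 genes in the table, or of its 19951 protein-coding genes, and 75 distinct symbols, since HSPA14 stands under 2 gene identifiers. By class they are 3 HSP90 genes, 13 HSP70 genes, 3 HSP110 genes, the chaperonin pair HSPD1 and HSPE1, 8 small heat shock proteins, 4 DNAJA, 12 DNAJB and 29 DNAJC genes, and the 2 binding proteins HSPBP1 and HSPBAP1, which the symbol rule also takes in. Of the 76, 64 passed the filter on low counts, together with 15252 genes in all.

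The cells were PPRE-eGEP-THP-1, made from THP-1, an established human line from a monocytic leukaemia. They were first turned into macrophages with the phorbol ester PMA at 25 ng/mL over 48 h and then rested for 24 h. The groups were M1 cells with MCHP, M1 cells with solvent, M2 cells with MCHP and M2 cells with solvent, with 3 libraries each that the series describes as biological replicates. M1 cells received lipopolysaccharide (LPS, 100 ng/mL) and interferon gamma (IFN-γ, 20 ng/mL) for 24 h, and M2 cells IL-4 and IL-13 (20 ng/mL each). Monocyclohexyl phthalate (MCHP, a phthalate monoester) was given at 100 µM during polarization, and its solvent is called DMSO in the sample names. All groups share the one reporter line, the phorbol ester and the single dose and time, so a result holds for this line under these conditions.

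Molecular chaperones bind unfolded or partly folded proteins and help them reach or keep their structure. HSP70 proteins do this in cycles of ATP hydrolysis that are started by J-domain proteins (DNAJA, DNAJB and DNAJC) and reset by nucleotide exchange factors, among them the HSP110 proteins, while HSP90 acts later on selected clients such as kinases and receptors. Some members are made in all cells at all times (HSPA8, HSP90AB1), some are induced by heat and proteotoxic stress through the transcription factor HSF1 (HSPA1A, HSPA1B, HSPA6, DNAJB1), and others serve the endoplasmic reticulum (HSPA5, HSP90B1) or mitochondria (HSPA9, HSPD1, HSPE1).

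The libraries held 14352202 to 16871233 counts. Levels in CPM below use TMM-scaled library sizes. The summed CPM of 6 M1 markers was 1140.66 to 1311.2 in the M1 libraries and 0.627 to 1.55 in the M2 libraries. The 6 M2 markers summed to 8828.49 to 11487.7 CPM in M2 and to 2163.86 to 2392.05 CPM in M1, most of it TGM2. Of these markers, MRC1 was at 0 to 0.0685 CPM and CCL17 at 0 to 0.294 CPM in all libraries. The 7 macrophage and monocyte markers summed to 1421.83 to 1654.77 CPM in all libraries, but CD68 among them was at 0 to 0.508 CPM. M2 DMSO replicate 1 stood apart. Over genes, the SD of its log2 deviation from its group was 0.325, against 0.186 to 0.226 for the other libraries. The median deviation of the members in it was 0.107, against -0.0400 to 0.0303 in the others. For some results that shift with this library, values are given with and without it. All others are from all libraries and may depend on it. Among these are HSPB1, DNAJC5, CALR and PFDN5 between M1 and M2 in DMSO, and BAG1 and HERPUD1 with MCHP in M2. The part of a technical cause in its deviation was not tested. Counts cannot tell fewer cells of a kind from less RNA per cell.

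Some of the promoters are printed because the results turn on these genes and to show where 2 known elements occur in them: the heat shock element that HSF1 binds, made of alternating GAA and TTC units, and the endoplasmic reticulum stress element, ERSE. The 250 bases before the start site are given for 7 members, 5′ to 3′, from RefSeq promoters on GRCh38.p14. Capitals mark a heat shock element of 3 alternating GAA and TTC units with 2 free bases between units (HSE3), one of 2 units, GAA then TTC (HSE2, marked in HSPA1A and HSPA1B only), or an ERSE, which is CCAAT, 9 free bases and CCACG. Both strands were searched. HSE2 is contained in HSE3. The start sites are those of RefSeq, and the gene models of the count table begin elsewhere for some of these genes.
HSPA1A (chr6:31815293-31815542, + strand): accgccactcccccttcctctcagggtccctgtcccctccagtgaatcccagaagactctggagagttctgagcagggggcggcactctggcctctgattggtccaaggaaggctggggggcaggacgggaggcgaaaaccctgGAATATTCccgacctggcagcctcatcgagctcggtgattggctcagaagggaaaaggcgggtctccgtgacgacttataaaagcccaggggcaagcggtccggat
HSPA1B (chr6:31827488-31827737, + strand): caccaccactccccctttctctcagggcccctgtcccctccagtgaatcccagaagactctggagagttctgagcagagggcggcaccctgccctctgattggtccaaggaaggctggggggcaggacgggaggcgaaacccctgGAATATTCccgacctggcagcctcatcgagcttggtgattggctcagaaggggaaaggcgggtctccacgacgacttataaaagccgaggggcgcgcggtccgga
HSPA6 (chr1:161524290-161524539, + strand): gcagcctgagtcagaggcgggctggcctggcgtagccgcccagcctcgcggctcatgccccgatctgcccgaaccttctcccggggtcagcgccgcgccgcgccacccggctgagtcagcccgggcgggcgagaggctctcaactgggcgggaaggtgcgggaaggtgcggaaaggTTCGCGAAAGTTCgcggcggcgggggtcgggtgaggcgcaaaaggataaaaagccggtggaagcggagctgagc
HSPA8 (chr11:123062137-123062386, - strand): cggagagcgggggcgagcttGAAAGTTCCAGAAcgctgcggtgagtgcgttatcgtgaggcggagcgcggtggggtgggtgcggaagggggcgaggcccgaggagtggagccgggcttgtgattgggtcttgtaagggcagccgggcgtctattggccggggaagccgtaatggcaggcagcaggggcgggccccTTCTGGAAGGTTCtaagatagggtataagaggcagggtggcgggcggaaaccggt
HSP90AB1 (chr6:44245944-44246193, + strand): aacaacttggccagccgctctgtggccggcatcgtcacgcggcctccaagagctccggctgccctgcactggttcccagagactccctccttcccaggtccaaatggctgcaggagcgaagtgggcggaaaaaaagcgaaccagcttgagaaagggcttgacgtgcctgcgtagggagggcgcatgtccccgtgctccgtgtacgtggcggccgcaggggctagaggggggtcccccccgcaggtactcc
HSPA5 (chr9:125241344-125241593, - strand): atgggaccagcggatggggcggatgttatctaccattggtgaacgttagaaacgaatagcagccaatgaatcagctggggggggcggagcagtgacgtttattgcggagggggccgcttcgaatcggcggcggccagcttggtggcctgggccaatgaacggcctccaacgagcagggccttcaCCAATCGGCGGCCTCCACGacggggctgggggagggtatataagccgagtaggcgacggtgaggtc
HSP90B1 (chr12:103930160-103930409, + strand): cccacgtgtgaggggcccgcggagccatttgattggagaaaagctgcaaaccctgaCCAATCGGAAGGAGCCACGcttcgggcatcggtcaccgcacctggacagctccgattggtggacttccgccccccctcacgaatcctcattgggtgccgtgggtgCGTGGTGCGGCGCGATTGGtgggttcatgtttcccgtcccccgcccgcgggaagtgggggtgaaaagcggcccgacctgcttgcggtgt

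The promoters of HSPA1A and HSPA1B had 277 identical positions among 301 aligned columns of the 300-base windows, and each held 1 HSE2, which starts 106 bases before the start site in HSPA1A and 105 bases before it in HSPA1B. HSPA6 held 1 HSE3 starting 74 bases before its start site. HSPA8, which is made constitutively, held 2 HSE3. HSP90AB1 held none of these in its window. HSPA5 held 1 ERSE and HSP90B1 held 2. Over windows of 250 bases before to 50 bases after the start, found for 67 of the 75 symbols, HSE3 occurred in 4 chaperone promoters, DNAJA1, DNAJB6, HSPA6 and HSPA8 (5.97%), against 0.366% of 15843 protein-coding promoters. HSE2 occurred in 11 (16.4%), against 5.56%, and ERSE in 2 (2.99%), against 0.12%. The bare CCAAT box occurred in 40.3% and in 36.4%. A match describes letters and is not a measured binding site, and windows without a match say nothing of the factor. The windows of HSPA1L and HSPA1A share 241 bases, and those of HSPD1 and HSPE1 share 204.

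Most of the chaperone RNA came from a small number of genes. On the scale of TPM (transcripts scaled to a fixed total for each library and per gene length, computed here from counts and the gene lengths in the file), the 76 members together made up 0.655% to 0.872% of transcripts. The 10 most abundant members carried 73.9% of the members' summed mean TPM. A total of 17 members averaged over 100 TPM, 44 over 10 TPM, and 15, tested or not, under 1 TPM. Levels are per length of the summed exon models, so a gene with a long model, such as DNAJC10 with 21835 bases, reads lower than per length of a shorter transcript.

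HSP90AB1, the constitutive cytosolic HSP90, was at 976.63, 967.91 and 980.86 TPM in M1 with MCHP and at 955.18, 966.73 and 1003.66 TPM in M1 with DMSO. In M2 it was at 1845.1, 1845.99 and 1873.89 TPM with MCHP and at 1748.26, 1652.12 and 1638.73 TPM with DMSO. HSPA5, the endoplasmic reticulum HSP70 (BiP), was at 1281.97, 1248.88 and 1253.78 TPM in M1 with MCHP, and at 1239.64, 1236.18 and 1194.88 TPM in M1 with DMSO. In M2 it was at 1121.68, 1115.31 and 1060.48 TPM with MCHP and at 1303.43, 1156.01 and 1177.71 TPM with DMSO. The most abundant chaperone differed by polarization. The ratio of HSP90AB1 to HSPA5 was 0.773 ± 0.0104 in M1 with MCHP and 0.798 ± 0.0372 in M1 with DMSO, and 1.69 ± 0.0677 in M2 with MCHP and 1.39 ± 0.0441 in M2 with DMSO (SD, n = 3 each).

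HSP90B1, the HSP90 of the endoplasmic reticulum (GRP94), came next with a mean of 774.87 TPM over the 12 libraries. HSP90AA1, the stress-inducible cytosolic HSP90, averaged 396.09 TPM, DNAJC5 355.54, HSPA8 353.41, HSPA9 337.21 and DNAJA1 280.08. DNAJC5 is the synaptic vesicle protein CSPα, HSPA9 the mitochondrial HSP70 and DNAJA1 a cytosolic partner of HSPA8. DNAJC5 and HSPA8 changed places by polarization, with DNAJC5 higher in every M1 library and lower in every M2 library. HSP90AB1 stood 2.69 ± 0.0174 times above HSP90AA1 in M1 with MCHP and 2.67 ± 0.0848 times in M1 with DMSO, against 4.18 ± 0.176 times in M2 with MCHP and 4.10 ± 0.255 times in M2 with DMSO (SD, n = 3 each).

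**Figure D1:**
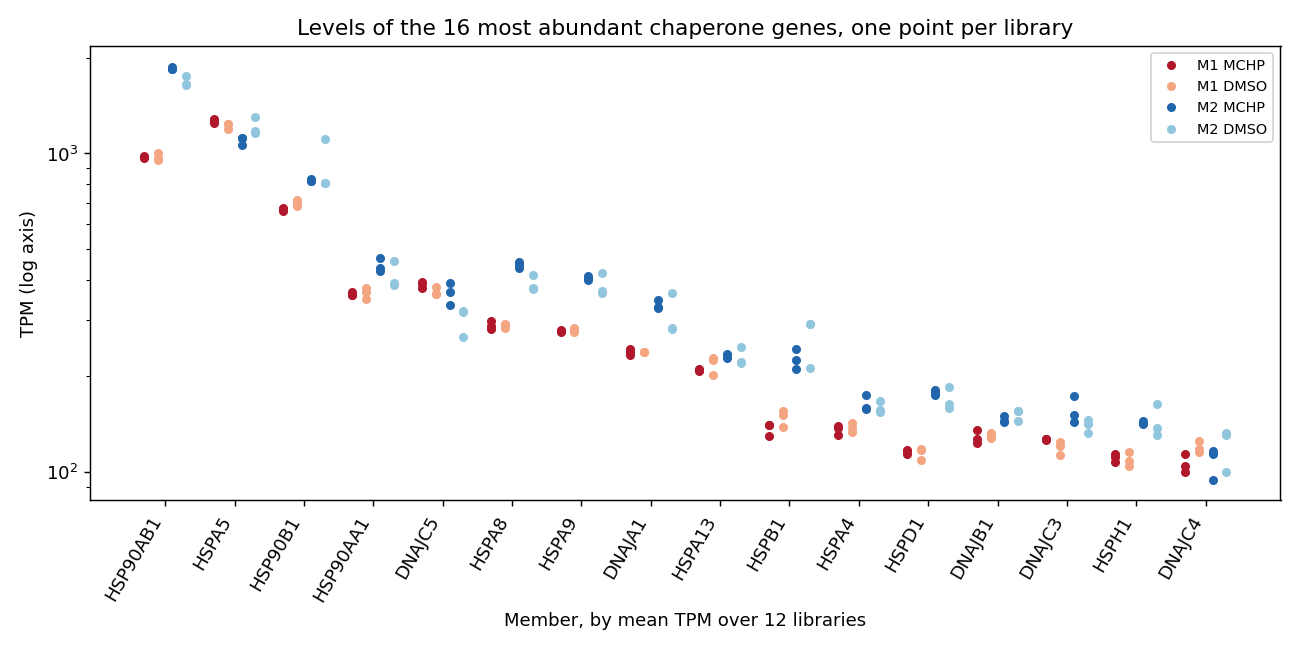
TPM on a log axis of the 16 members with the highest mean, one point for each of the 12 libraries, with the groups in the order M1 MCHP, M1 DMSO, M2 MCHP and M2 DMSO within each member. HSP90AB1 lies at 955.18 to 1003.66 TPM in M1 DMSO and at 1638.73 to 1873.89 TPM over the M2 libraries, while HSPA5 is lower in M2 with MCHP than in M1.

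The inducible HSP70 genes HSPA1A, HSPA1B and HSPA6 were low. HSPA1B was at 13.87, 13.44 and 13.11 TPM in M1 with MCHP and at 13.77, 13.3 and 14.94 TPM in M1 with DMSO, and at 11.6, 11.62 and 9.35 TPM in M2 with MCHP and 9.68, 11.36 and 10.72 TPM in M2 with DMSO. HSPA1A lay between 0.423 and 2.74 TPM and HSPA6 between 0.571 and 3.74 TPM over the 12 libraries. HSPA1A and HSPA1B share 69.9% of HSPA1A's and 68.8% of HSPA1B's 100-base transcript windows. Their counts may thus be exchanged, or lost if reads with several matches were left out, so the levels of both may be understated. The ratio of HSPA1B to HSPA1A ran from 4.51 to 22.9 among libraries. HSPA1B also overlaps AL671762.1 over 36.5% of its exon bases on the same strand. DNAJB1, another HSF1 target, was not low, at 123.66 to 155.41 TPM. The small heat shock proteins were dominated by HSPB1, at 129.82 to 155.5 TPM in M1 and 209.98 to 292.12 TPM in M2, followed by HSPB7 at 12.3 to 28.7 TPM and HSPB11 at 6.95 to 14.2 TPM.

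A total of 12 members did not pass the filter, the highest with 52 counts over the 12 libraries. DNAJB8, DNAJC15, DNAJC25-GNG10 and HSPB2 had no count in any library, which allows a level of up to 0.0160 CPM (3 counts over all libraries, counting error only). The other 8 were HSPA2, HSPA12B, HSPB3, HSPB6, HSPB8, HSPB9, DNAJB7 and DNAJC5B. Retrotransposed copies of several members are annotated: 92 pseudogene rows named after members carried 2028 counts, against 814636 for those members, which is 0.249%. The share was largest for HSPE1, with 146 pseudogene counts against 1472 of its own (9.92%), so HSPE1 is uncertain. HSPE1 also shares 23.9% of its exon bases with HSPD1 and HSPE1-MOB4. How reads with several matches were counted is not stated.

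In M1 cells MCHP had no called effect on these chaperones. None of the 64 passed the test (edgeR's quasi-likelihood test, Benjamini-Hochberg adjusted p under 0.05), where 0.0852% of all 15252 genes did (13 genes). An unadjusted p under 0.05 (edgeR) was reached by 4 of the 64 members and by 817 of all 15252 genes. DESeq2 and limma-voom called 0 members. The members' median log2 fold change was -0.01 and that of all genes 0. Among the abundant chaperones, HSP90AB1 had 776.42, 766.66 and 765.26 CPM with MCHP and 756.17, 764.3 and 788.31 CPM with DMSO, a log2 fold change of -0.0003 ± 0.05 (SE). HSPA8 had 384.89, 370.29 and 357.74 CPM with MCHP and 376.19, 363.21 and 370.42 CPM with DMSO, and the groups overlapped.

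Among the heat-inducible genes, HSPA6 had 1.06, 1.09 and 1.31 CPM with MCHP and 2.36, 2.29 and 1.21 CPM with DMSO in M1, a log2 fold change of -0.75 ± 0.33 that did not pass (edgeR adjusted p = 0.892). Those values rest on 52 and 86 counts, a ratio of 0.599 (95% counting interval 0.416 to 0.854). One DMSO library fell among the MCHP libraries. HSPA1A had a log2 fold change of 0.49 ± 0.47 from 65 and 45 counts, and HSPA1B one of -0.06 ± 0.13. DNAJB1 had -0.02 ± 0.06 and HSPH1, the main HSP110, 0.02 ± 0.07. The remaining fixed examples in M1 lay between -0.11 for HSPB1 and 0.12 for HSPE1, with HSPA5 at 0.04 ± 0.05 and HSP90B1 at -0.07 ± 0.08. Named after their values were seen, DNAJA4, a cytosolic DNAJA, had 1.88, 2.54 and 2.16 CPM with MCHP and 1.36, 1.28 and 1.27 CPM with DMSO, so the groups did not overlap, but its log2 fold change of 0.74 ± 0.26 did not pass (edgeR adjusted p = 0.650). In M1, 9 members had groups that did not overlap (15.9% of all genes), 4 with MCHP above (8.35% of all genes) and 5 below (7.58%).

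In M2 cells 3 of the 64 members were higher with MCHP, HSPA8, HSP90AB1 and DNAJC5, and none was lower. That is 4.69% of the members, against 5.11% of all genes (2.92% higher, 2.18% lower), near the background. The share of counts from genes of the mitochondrial genome also differed in M2, at 3.64%, 3.71% and 4.28% with MCHP and 3.23%, 3.12% and 3.10% with DMSO, with no overlap, and its part in these results was not tested. When just the compared libraries were fitted, none of the 3 passed, and 0 of 64 members were called (edgeR). HSPA8, the constitutive cytosolic HSP70 (HSC70), lies on chromosome 11, from 123057489 to 123063230 on the minus strand (hg38). It had 557.58, 555.27 and 536.48 CPM with MCHP and 481.95, 446.02 and 451.6 CPM with DMSO. Every MCHP library lay above every DMSO library. The log2 fold change was 0.26 ± 0.05 (edgeR adjusted p = 0.00682).

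HSP90AB1 (chromosome 6, 44246166 to 44253888, plus strand) had 1383.88, 1406.08 and 1411.97 CPM with MCHP and 1250.58, 1204.08 and 1204.93 CPM with DMSO. Again no library of one group reached the other. The log2 fold change was 0.20 ± 0.05 (edgeR adjusted p = 0.0161). The call was lost with library size alone, and when either of 2 MCHP libraries (replicates 1 and 3) or M2 DMSO replicate 2 was left out. DNAJC5 (chromosome 20, 63895182 to 63936031, plus strand) had 488.11, 451.67 and 524.64 CPM with MCHP and 336.53, 414.6 and 414.49 CPM with DMSO, a log2 fold change of 0.33 ± 0.07 (edgeR adjusted p = 0.0141). M2 DMSO replicate 1 is the lowest of these libraries. Without it the DNAJC5 log2 fold change was 0.24 ± 0.05, and the call was lost without M2 MCHP replicate 1 or 3.

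**Figure D2:**
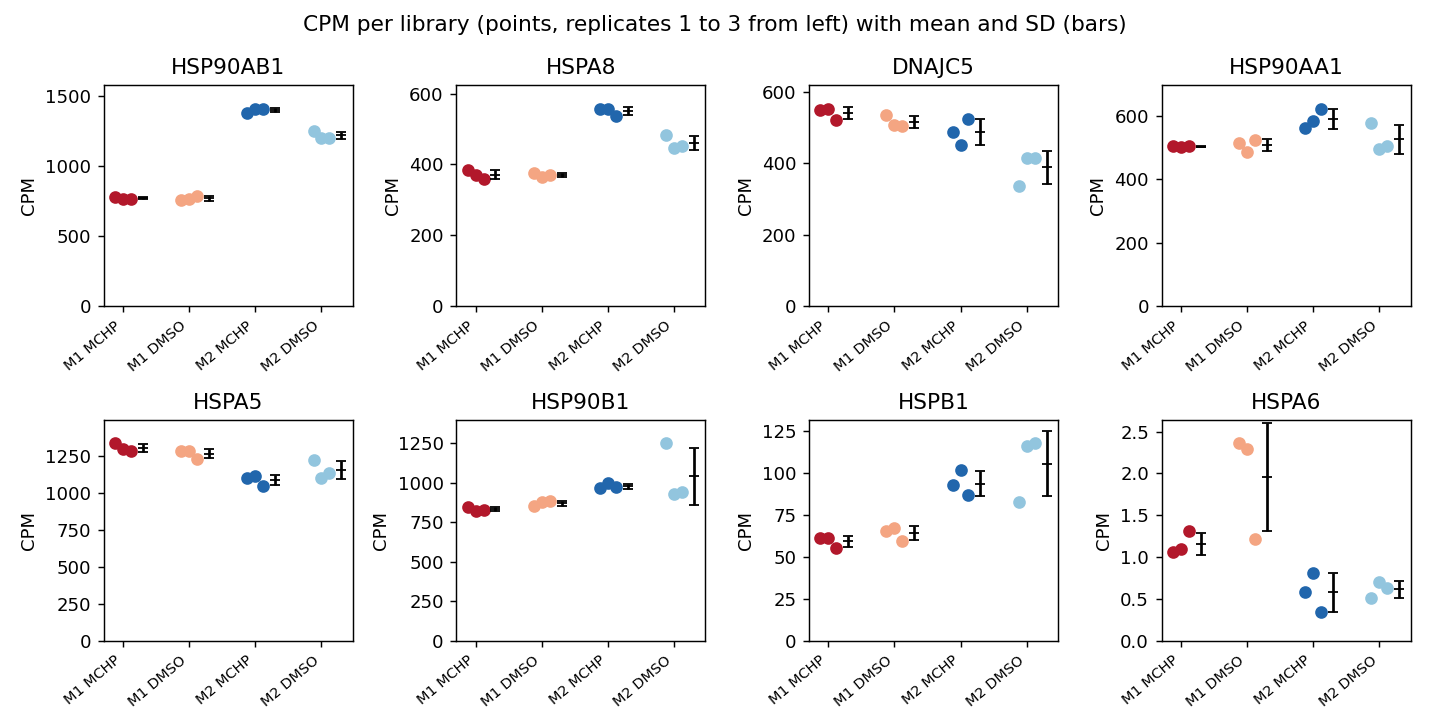
CPM of 8 members in each library, with replicates 1 to 3 from left to right in each group and the mean and SD beside them, on axes that start at 0. For HSPA8 the M2 MCHP libraries at 536.48 to 557.58 CPM lie above the M2 DMSO libraries at 446.02 to 481.95 CPM, while in M1 both groups overlap.

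For other cytosolic and mitochondrial members the call depended on the library that stood apart. Without M2 DMSO replicate 1, 11 members passed in M2, 9 higher and 2 lower, or 17.2% against 11.2% of all genes in the same fit. HSP90AA1 then had a log2 fold change of 0.24 ± 0.05, against 0.17 ± 0.06 with all libraries (edgeR adjusted p = 0.000533 and 0.146). DNAJA1 had 0.29 ± 0.05 against 0.17 ± 0.08, and HSPA9 0.19 ± 0.04 against 0.13 ± 0.05. HSPD1, the HSP60 chaperonin, had 0.19 ± 0.05 against 0.13 ± 0.06. HSPB1 went the other way, at -0.32 ± 0.06 against -0.18 ± 0.10, and DNAJC4 at -0.23 ± 0.07. HSPA9 had 842.89, 848.2 and 859.4 CPM with MCHP and 835.42, 737.64 and 755.27 CPM with DMSO, where the highest DMSO value is that library.

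The endoplasmic reticulum members gave no call in M2 in either fit. With all libraries, 3 of the 8 lumen members had a positive log2 fold change, and the median was -0.04. DNAJC3, named after its values were seen, had 213.19, 204.65 and 244.45 CPM with MCHP. With DMSO it had 177.68, 199.3 and 194.5 CPM, so the groups did not overlap. Its log2 fold change without M2 DMSO replicate 1 was 0.16 ± 0.06 (edgeR adjusted p = 0.0614). HSPA5 had 1103.28, 1114.08 and 1047.9 CPM with MCHP and 1222.73, 1104.88 and 1135.61 CPM with DMSO, a log2 fold change of -0.08 ± 0.05, or -0.04 ± 0.04 without M2 DMSO replicate 1. HSP90B1 had 966.66, 996.03 and 971.28 CPM with MCHP and 1248.57, 928.53 and 939.06 CPM with DMSO. Its log2 fold change was -0.09 ± 0.08, and the sign rested on M2 DMSO replicate 1, without which it reached 0.07 on the same scale. Summed over the 8 members of the endoplasmic reticulum lumen, TPM was 2640.79, 2631.98 and 2608.25 with MCHP and 3178.49, 2644.82 and 2663.65 with DMSO. The per-length ratio of HSPA8 to HSPA5 was 0.407 ± 0.00546 in M2 with MCHP and 0.321 ± 0.00388 in M2 with DMSO, with M2 DMSO replicate 1 at 0.318. In M1 it was 0.229 ± 0.00378 with MCHP and 0.236 ± 0.00709 with DMSO (SD, n = 3 each). This ratio was chosen after its values were seen and is a description.

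The heat-inducible genes gave no call in M2. HSPA1B had 7.36, 7.49 and 5.96 CPM with MCHP and 5.86, 7.0 and 6.67 CPM with DMSO. HSPA1A had 36 and 40 counts over the group, and HSPA6 28 and 31. DNAJB1 averaged 136.1 ± 2.40 CPM with MCHP and 136.1 ± 7.14 CPM with DMSO (SD, n = 3 each), a log2 fold change of -0.0002 ± 0.06. HSPH1 had 0.05 ± 0.07, or 0.14 ± 0.05 without M2 DMSO replicate 1 (edgeR adjusted p = 0.0508), and HSPE1 had 0.16 ± 0.12. The 26 tested DNAJC genes ran from -1.03 for DNAJC5G, with 32 and 70 counts over the group, to 0.33 for DNAJC5.

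**Figure D3:**
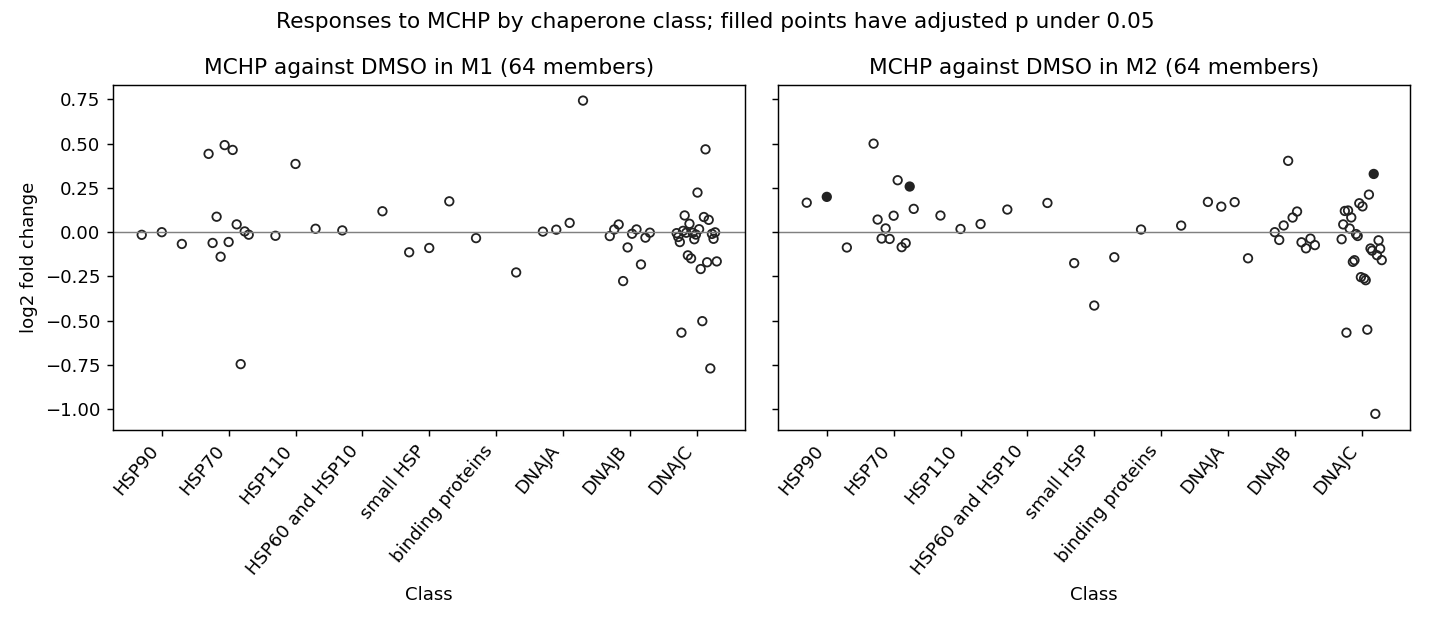
log2 fold changes of the 64 tested members with MCHP over DMSO, by class, in M1 (left) and M2 (right). Filled points are the 3 members with adjusted p under 0.05 in M2, HSP90AB1, HSPA8 and DNAJC5, and no point is filled in M1.

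Whether the response to MCHP differed between M1 and M2 was tested as an interaction. None of the 64 members passed, where 0.164% of all genes did (25 genes). There were 7 of the 64 members with an unadjusted p under 0.05 (edgeR), and 1349 of all 15252 genes. DESeq2 and limma-voom called 0 members. HSPA8 had a difference of -0.25 ± 0.07, M1 minus M2, on the log2 scale (edgeR adjusted p = 0.269), HSP90AB1 one of -0.20 ± 0.06 (0.346) and HSPA9 one of -0.15 ± 0.07 (0.605). Without M2 DMSO replicate 1, 5 members passed, all lower in M1, or 7.81% against 2.46% of all genes: HSPA8, HSP90AB1, HSP90AA1, HSPA9 and DNAJA1, at -0.20 to -0.29.

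More members passed between polarizations. Between M1 and M2 in DMSO, 32 of the 64 members passed, or 50%, against 42.5% of all genes. Of these, 12 were higher in M1 (21.6% of all genes) and 20 lower (20.9% of all genes), and the members' median log2 fold change was -0.10, against -0.0043 for all genes. With library size alone in place of TMM scaling, the median of all genes shifted to -0.13 and the split became 7 higher and 25 lower. Of the 32 calls, 23 held under every alternative tried. By class, 25% of 4 DNAJA, 40% of 10 DNAJB and 38.5% of 26 DNAJC genes passed, each below the 42.5% of all genes. The other classes lay at 50% to 100%, with 2 to 11 tested genes each.

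Of the 3 HSP90 genes 2 were lower in M1, as were both chaperonin genes, HSPD1 and HSPE1, and the mitochondrial HSP70. HSP90AB1 had 756.17, 764.3 and 788.31 CPM in M1 and 1250.58, 1204.08 and 1204.93 CPM in M2, a log2 fold change of -0.66 ± 0.05 (edgeR adjusted p = 9.23e-10). HSP90AA1, its inducible relative, had 513.5, 487.78 and 524.52 CPM in M1 and 578.6, 494.63 and 506.21 CPM in M2, and the groups overlapped, at -0.05 ± 0.06 (edgeR adjusted p = 0.560), or 0.02 without M2 DMSO replicate 1. HSPA9 fell by 0.34 on the log2 scale, HSPD1 by 0.43 and HSPA8 by 0.31, with no overlap between the M1 and M2 libraries. HSPE1, the HSP10 partner of HSPD1, was at -0.33 ± 0.13 (edgeR adjusted p = 0.0443), and its call was lost under 12 of 20 alternatives. HSPH1 fell by 0.27 and DNAJA1 by 0.26, and without M2 DMSO replicate 1 their log2 fold changes were -0.18 and -0.14. HSP90B1 was at -0.26 ± 0.08 with that library and at -0.10 ± 0.04 without it, and its call was lost in the fit of the compared libraries and without M1 DMSO replicate 1.

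The small heat shock proteins did not move as one. HSPB1 (HSP27) had 65.62, 67.41 and 59.62 CPM in M1 and 83.04, 116.39 and 117.77 CPM in M2, a log2 fold change of -0.72 ± 0.11 (edgeR adjusted p = 1.87e-05). HSPB7 had -0.81 ± 0.10, from 12.8, 15.84 and 16.16 CPM in M1 and 25.64, 25.54 and 27.7 CPM in M2. HSPB11, a component of intraflagellar transport despite its name, was higher in M1 at 0.41 ± 0.14 (edgeR adjusted p = 0.0266). That call was lost under 4 of the 20 alternatives.

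Of the heat-inducible genes, HSPA1B and HSPA6 were higher in M1, at low levels. HSPA1B had 9.22, 8.9 and 9.93 CPM in M1 and 5.86, 7.0 and 6.67 CPM in M2, a log2 fold change of 0.52 ± 0.13 (edgeR adjusted p = 0.00328). HSPA6 had 33, 34 and 19 counts in M1 and 8, 12 and 11 counts in M2, a ratio of 3.14 (95% counting interval 2.06 to 4.90) and a log2 fold change of 1.65 ± 0.36 (edgeR adjusted p = 0.0010). HSPA1A, with 45 and 40 counts over the group, did not pass (0.36 ± 0.50, edgeR adjusted p = 0.598), and was at -0.04 without M2 DMSO replicate 1. DNAJB1 had -0.10 ± 0.06 (edgeR adjusted p = 0.213), and without that library it passed at -0.14 (0.0243). HSPA5 was 0.13 ± 0.05 higher in M1, but its call (edgeR adjusted p = 0.0461) was lost under 13 of 20 alternatives, among them library size alone, where the log2 fold change was 0.0040.

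The largest differences were in low members. DNAJC22 had 2, 2 and 3 counts in M1 and 17, 24 and 21 in M2, a ratio of 0.128 (95% counting interval 0.0493 to 0.279). HSPA4L, an HSP110 relative, had 7, 6 and 8 counts in M1 and 32, 25 and 31 in M2 (ratio 0.270, interval 0.159 to 0.439), and HSPA12A had 8, 17 and 18 against 42, 55 and 60 (ratio 0.310, interval 0.216 to 0.437). DNAJC12, a partner of aromatic amino acid hydroxylases, had 26, 27 and 28 counts in M1 and 85, 71 and 73 in M2. DNAJC5G had 6, 9 and 14 counts in M1 and 24, 23 and 23 in M2 (ratio 0.469, interval 0.293 to 0.732), and its call was lost under 7 of 20 alternatives. In each of these 5 genes every M1 library lay below every M2 library. They were picked by the size of that difference, so this adds no support. The same held for 22 of the 64 members and 3670 of all 15252 genes. Among better covered J proteins, DNAJB5 was higher in M1 at 0.79 ± 0.10, DNAJC7 at 0.44 ± 0.07, DNAJC5 at 0.41 ± 0.07, DNAJB14 at 0.40 ± 0.07 and DNAJB6, an anti-aggregation chaperone, at 0.33 ± 0.06. DNAJC10, a disulfide reductase of the endoplasmic reticulum, was lower at -0.46 ± 0.06, as were DNAJC18 at -0.80 ± 0.13, DNAJB11, a partner of HSPA5, at -0.28 ± 0.08 and DNAJC21 at -0.26 ± 0.06.

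**Figure D4:**
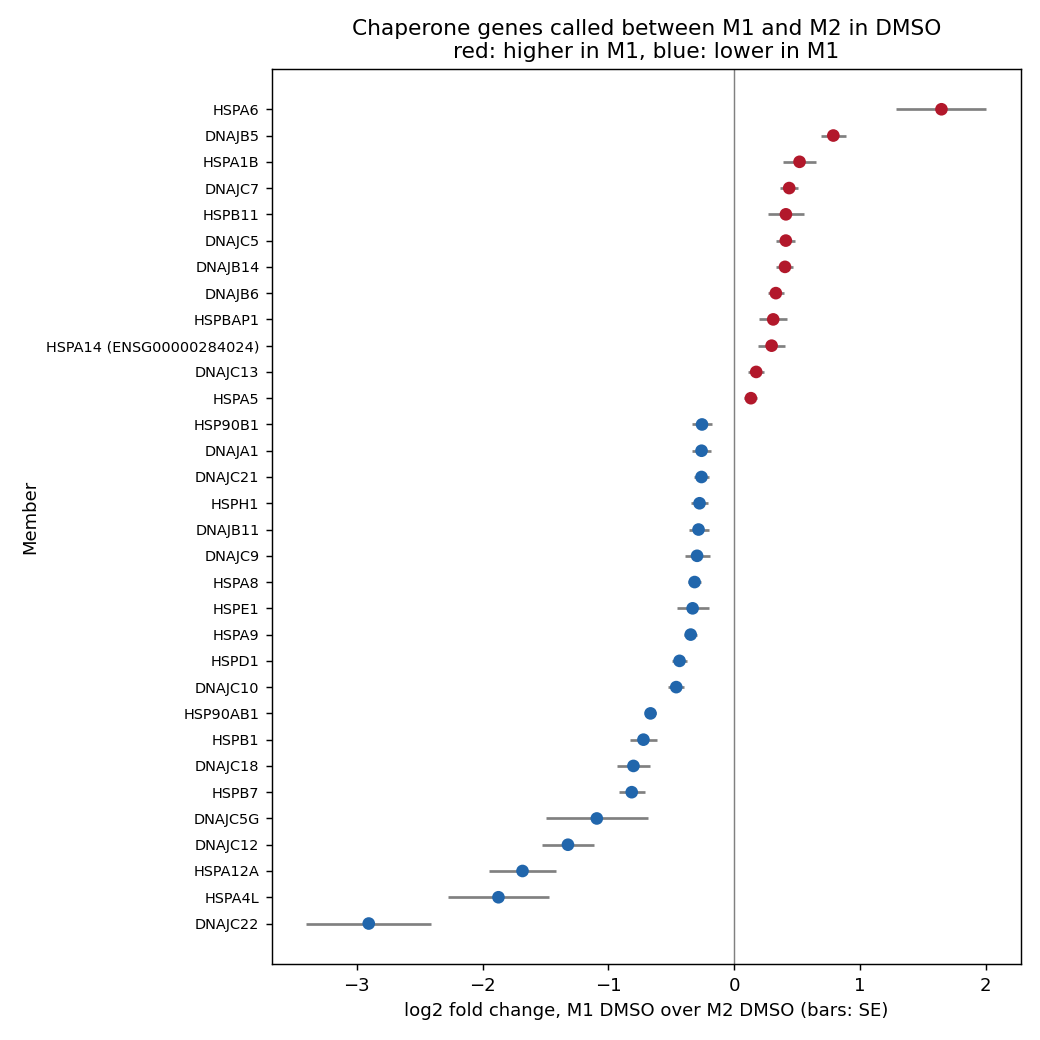
log2 fold changes of M1 DMSO over M2 DMSO with SE for the 32 members that passed, from HSPA6 at 1.65 to DNAJC22 at -2.91. Red points are the 12 members higher in M1 and blue points the 20 lower in M1.

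With MCHP present, 33 of the 64 members passed between M1 and M2 (51.6%, against 44.6% of all genes), 9 higher (21.9% of all genes) and 24 lower (22.7%). With library size alone the split was 5 higher and 27 lower. Of the 33 calls, 22 held under every alternative tried. This comparison has no library in common with that in DMSO, though both use one estimate of spread. Together they shared 26 calls, all in the same direction, 7 higher and 19 lower. That is 81.2% of the DMSO calls and 78.8% of the MCHP calls. The same overlap was not computed over all genes, so it is not shown to be particular to the chaperones. The largest differences were again in low members: DNAJC22 at -2.66, HSPA12A at -1.74, HSPA4L at -1.51, DNAJC12 at -1.32 and DNAJB13 at -1.03. Of the calls higher in M1, HSPB11 at 0.74 and DNAJB5 at 0.70 were the largest. HSP90AB1 was at -0.86 ± 0.05, HSPA8 at -0.57 ± 0.05, HSPA9 at -0.49 ± 0.05 and DNAJA1 at -0.43 ± 0.08. HSP90AA1 passed here at -0.23 ± 0.06 (edgeR adjusted p = 0.00546) and HSPA6 did not at 0.97 ± 0.39 (0.0518). HSPA5 was higher in M1 at 0.26 ± 0.05 (edgeR adjusted p = 0.000415).

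The partners of these chaperones were counted from lists of known cochaperones and folding factors. With MCHP in M1, none of the 85 tested genes on 7 lists passed. With MCHP in M2, 2 of the 85 passed (2.35%, against 5.11% of all genes), and without M2 DMSO replicate 1 there were 10, 9 higher and 1 lower (11.8%, against 11.2% of all genes in that fit). BAG1, a nucleotide exchange factor of HSP70, was higher at 0.29 ± 0.07 (edgeR adjusted p = 0.0241; 44.0, 45.4 and 46.1 CPM with MCHP and 35.2, 37.0 and 38.9 CPM with DMSO). HERPUD1, a component of endoplasmic reticulum-associated degradation, was lower at -0.38 ± 0.06 (edgeR adjusted p = 0.0013), from 186.3, 196.6 and 166.4 CPM with MCHP and 244.1, 235.5 and 235.1 CPM with DMSO. The 8 subunits of TRiC, the cytosolic chaperonin, had log2 fold changes of 0.08 to 0.21 and none passed with all libraries, while CCT2, CCT5 and CCT6A passed without M2 DMSO replicate 1. With all libraries 7 of 8 had groups that did not overlap, all with MCHP above, against 11.2% of all genes. TRiC was singled out after its values were seen. The same held for 0 of 4 genes of the HSF list, 4 of 19 HSP90 and 1 of 15 HSP70 cochaperones. It held for 0 of 6 prefoldin subunits, 2 of 21 endoplasmic reticulum and 1 of 12 mitochondrial list genes. In M1, 3 of 8 TRiC subunits had every MCHP library below every DMSO library, against 7.58% of all genes.

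Between M1 and M2 in DMSO, 30 of the 85 list genes passed (35.3%, against 42.5% of all genes), 6 higher (21.6% of all genes) and 24 lower (20.9%). Without M2 DMSO replicate 1, 38 passed, 9 higher and 29 lower (44.7%, against 46.2% of all genes in that fit). The share of the list genes was below that of all genes in both fits, by less without that library. Of the 3 HSF genes 1 was higher, HSF1, at 0.31 ± 0.10 (edgeR adjusted p = 0.0200), with 101.4, 95.0 and 95.5 CPM in M1 and 60.8, 86.9 and 88.0 CPM in M2, and was at 0.15 ± 0.06 without M2 DMSO replicate 1, its lowest library. HSBP1, which binds HSF1, was lower at -0.18 ± 0.07, a call that was lost without that library (-0.13 ± 0.07). With all libraries, the TRiC subunits were above the share of all genes, with 5 of 8 lower (62.5%), led by CCT3 at -0.44 ± 0.06. The other lists with over 4 genes were below that share in the same fit, at 26.7% to 33.3% called. Of 19 HSP90 cochaperones 2 were higher and 4 lower, among them STIP1, which links HSP70 and HSP90, at -0.34 ± 0.05. Of 15 HSP70 cochaperones 4 were lower, led by SIL1, the exchange factor of HSPA5, at -0.90 ± 0.09 and ST13 at -0.46 ± 0.06. Of 21 folding enzymes and lectins of the endoplasmic reticulum 2 were higher and 5 lower, with CALR at -0.48 ± 0.06, PDIA4 at -0.46 ± 0.06 and CRELD2 at -0.43 ± 0.10. Of 12 mitochondrial chaperones and proteases 1 was higher and 3 lower, with TRAP1, the mitochondrial HSP90, at -0.57 ± 0.08. Of 6 prefoldin subunits 2 were lower, with PFDN5 at -0.44 ± 0.10.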

How the data were processed

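Polyadenylated RNA of 12 libraries was sequenced and counted by the authors. The deposited table gives raw counts per gene, whole numbers without normalization, per the file headers, and a length for each gene. Tools named in the submitters' processing notes, without roles, are featureCounts 1.5.0-p3, HISAT2 2.0.5, DESeq2 1.20.0, fastp and StringTie 1.3.3b, and the build is hg38. Strand and multiply mapped reads are not stated, so overlapping and near-identical genes may share or lose reads.

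Counts were fitted with edgeR 4.0.16 (R 4.3.3): filterByExpr, TMM factors, all 12 libraries with 1 mean per group (8 residual degrees of freedom), quasi-likelihood F-tests (two-sided) for 5 contrasts, and Benjamini-Hochberg adjustment over 15252 genes at 0.05. Standard errors follow from the F statistic. TPM use the deposited gene lengths. Intervals at low counts are exact 95% binomial intervals and cover counting error only. P-values test differences between group means against the spread between these libraries within groups. The steps were tested on simulated data. Alternatives used DESeq2 1.42.0 and limma 3.58.1 (voom), other scaling, filters and samples. No pairing of MCHP with DMSO libraries by replicate number was seen within M1 or M2, which 3 libraries per group cannot exclude. Correlation by replicate number between M1 and M2 was not computed.

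Members, classes and lists were chosen with earlier results of these data known. Values are given for called members, at most the 15 largest per contrast, and 14 fixed chaperones, and for up to 4 genes per list. Between M1 and M2 with MCHP, only part of the 15 largest are given. Outside that rule, DNAJA1, DNAJB6, DNAJB11, DNAJB14, DNAJC5, DNAJC21 and HSPB11 between M1 and M2 in DMSO, HSPA9, DNAJA1, HSPA5, HSPA6 and HSP90AA1 between M1 and M2 with MCHP, and the genes named as called without M2 DMSO replicate 1 were named after their values were seen.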

Additional observations from a re-analysis of the deposited data

How the results depend on the processing

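The counts of called members held within 1.5 times for every comparison with limma-voom, DESeq2, its size factors, library size alone, protein-coding genes only and no filter. Exceptions came from the libraries used. In M2, MCHP called 0 members with only the compared libraries and 1 to 11 with 1 library left out (1 without M2 MCHP replicate 1 or 3, 11 without M2 DMSO replicate 1). For the difference, leaving out 1 library gave 0 to 5. The cause was not tested, except that fewer libraries were fitted.

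Over all genes, MCHP in M1 called 13, against 76 without a filter, 41 with DESeq2, 295 with only the compared libraries and 1 to 159 with 1 library left out. In M2 it called 779, against 183 with only the compared libraries and 383 to 1747 with 1 left out. The difference called 25, against 170 without a filter, 82 with DESeq2 and 5 to 385 with 1 left out. The cause was not tested.

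Replicate numbers showed no pairing of MCHP with DMSO libraries within M1 or M2: the correlation of same-numbered deviations was -0.0561 to 0.0512. It was not computed between M1 and M2 libraries. With replicate number as a block, members called were 0 in M1, 3 in M2, 0 for the difference, 31 between M1 and M2 in DMSO and 34 with MCHP, and 5 genes in all were called in M1. Of the values of single members under alternatives, 2304 kept their side of the threshold, 121 lost it, 49 gained it and none turned its sign while called. Depth limits HSPA6, HSPA1A, HSPA1L, HSPA4L, DNAJA4, DNAJB13, DNAJC5G, DNAJC22 and DNAJC28, with under 100 counts in every group.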
